A study of Homo sapiens with 10 samples.

Results

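The constitutive proteasome is the protease complex that degrades ubiquitin-tagged proteins in every cell, and 31 genes for its subunits were followed here by Ensembl ID among the 20289 genes measured. They comprise PSMA1 to PSMA7 and PSMB1 to PSMB7 (14 core particle subunits), PSMC1 to PSMC6 (6 ATPases), and PSMD1, PSMD2, PSMD3, PSMD4, PSMD6, PSMD7, PSMD8, PSMD11, PSMD12, PSMD13 and PSMD14 (11 further regulatory particle subunits). The list is fixed by gene ID, but it was chosen with earlier results of these data known. Ribosome profiling sequences the mRNA pieces that ribosomes shield from nuclease, so a value combines how much mRNA there is and how much it is translated. The 10 libraries came from 2 established human pancreatic ductal adenocarcinoma lines. CFPAC-1 had 2 libraries with 0.1% DMSO and 2 with imidazole ketone erastin (IKE) at 10 µM, and PANC-1 had 2 libraries with 0.1% DMSO and 4 with IKE at 1 µM. Only cells left after dead cells and debris were washed away were profiled, so each value describes survivors, and no IKE dose was used in both lines. An exposure of 24 h is given in the labels, but their footprint protocol speaks of treatment over several consecutive days.

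The core particle is a barrel of stacked rings. Outer rings of alpha subunits (PSMA genes) form a gate, and inner rings of beta subunits (PSMB genes) hold the active sites. The regulatory particle caps the barrel: a base with a ring of ATPases (PSMC genes) unfolds substrates and feeds them in, and a lid removes ubiquitin. Each of these subunits is present in equal copy number within its particle. When proteasome activity falls short, the transcription factor NFE2L1 raises transcription of subunit genes through antioxidant response elements. IKE, like erastin, shuts off uptake of cystine by the cell and is a standard inducer of ferroptosis, a form of death by lipid peroxidation.

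All 31 genes were above 0 in all 10 libraries, passed the filter on low values and lay above the median gene of every library. Levels are in FPKM, a fragment count scaled to gene length and to all mapped fragments of a library. This scaling is meant to let genes of different length be compared. The annotation behind the lengths and the read filters are not given in sources used here, so ratios of level between genes are approximate. PANC-1 IKE replicates 2 and 4 stood apart: they were the shallowest libraries, at 0.24 and 0.21 of the depth of CFPAC-1 DMSO replicate 1 against 0.33 to 1.17 for the other 7, and their 10 most abundant genes held 16.2% and 23.1% of summed FPKM, against 8.51% to 12.2% in all the others. In addition, 26 genes that reached 200 FPKM in each of the 4 CFPAC-1 libraries and were listed at 0 in the second PANC-1 DMSO library, picked after their values were seen, summed to 0.87% of their CFPAC-1 level in PANC-1 IKE replicate 4 and to between 0.002% and 0.213% in PANC-1 DMSO replicate 1 and IKE replicates 1 to 3. The PANC-1 medians are therefore also given without replicates 2 and 4. So are the changes with IKE in PANC-1 of the 3 highest, the 3 lowest and the 3 catalytic subunits. Within the 31 genes the spread between replicates was much larger in PANC-1, with a median residual SD on the log2 scale of 0.468 against 0.078 in CFPAC-1, and it was the larger in PANC-1 for 31 of 31. All genes showed the same direction, with median residual SDs of 0.481 in PANC-1 and 0.18 in CFPAC-1. RefSeq lists 42 pseudogenes named after 18 of the 31 genes, and 4 genes (PSMC1, PSMC2, PSMC5 and PSMD1) overlap another protein-coding gene on the map, so reads could be shared with these and such values carry that uncertainty. The genes with such pseudogenes include PSMA3, PSMA5, PSMA6, PSMB3 and PSMC6, which are called lower in PANC-1 below, and PSMD8 and PSMC3. PSMC4 and PSMD13 have none.

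Footprint levels of the subunits spanned a wide range. In CFPAC-1 with DMSO the highest was PSMB3, a non-catalytic beta subunit, at 2098 and 1980 FPKM. PSMA6 followed at 1010 and 1045 FPKM and PSMA4 at 789 and 813 FPKM, both of the alpha ring. At the other end were PSMA2, an alpha subunit, at 60.4 and 57.3 FPKM and PSMD1, a scaffold of the base, at 70.5 and 53.0 FPKM. The highest member stood 34.7-fold and 37.4-fold above the lowest in these 2 libraries. Neighbours in the order overlapped between replicates in 17 of 30 cases in CFPAC-1 DMSO and in 26 of 30 in PANC-1 DMSO. Most of the fine order was thus not resolved in either line, and less of it was resolved in PANC-1.

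The order of the members was closer within a line than between lines. Across the 31 genes the Spearman correlation was 0.99 between the CFPAC-1 DMSO libraries and 0.944 between the PANC-1 DMSO libraries, and from 0.633 to 0.698 between DMSO libraries of different lines. With the IKE libraries included, it ran from 0.975 to 0.996 within CFPAC-1, from 0.724 (DMSO replicate 1 with IKE replicate 4) to 0.971 within PANC-1, and from 0.45 to 0.698 between the lines. These correlations are descriptions across genes that share a library. In PANC-1 with DMSO, PSMC4 was first, at 2311 and 2805 FPKM, PSMB3 was second by its mean, at 579 and 686 FPKM, and PSMD12, a lid subunit, was last by its mean, at 33.1 and 67.1 FPKM.

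**Figure D1:**
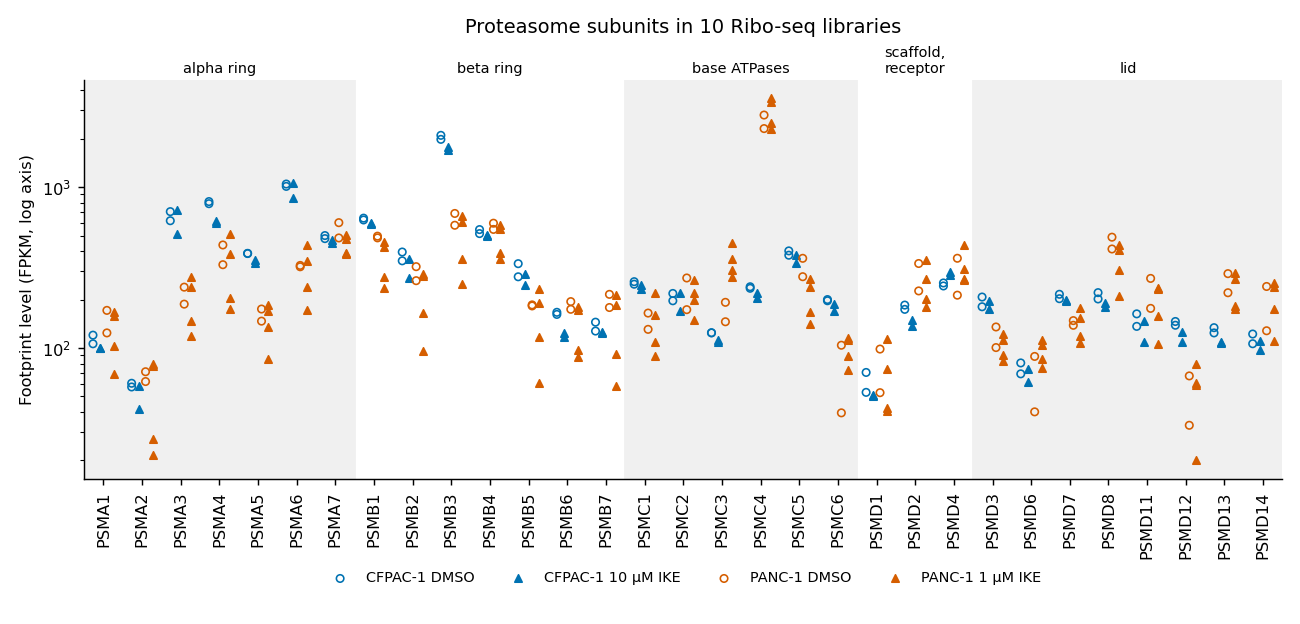
Footprint level in FPKM (log axis) of each of the 31 subunit genes, grouped by position in the complex; each symbol is 1 library, blue for CFPAC-1 and orange for PANC-1, open circles for DMSO and filled triangles for IKE. PSMC4 is the one ATPase above 2000 FPKM, in every PANC-1 library, and PSMB3 is the highest gene in CFPAC-1.

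The balance of core and regulatory particle genes also differed between the lines. Footprints on the 14 core genes summed to 7718 ± 104 FPKM (SD, n = 2) in CFPAC-1 DMSO and to 4387 ± 267 FPKM (n = 2) in PANC-1 DMSO. PSMB3 alone averaged 2039 FPKM in CFPAC-1 and 633 FPKM in PANC-1, and the core sum was not computed without it. The shift was not shared by the whole core: 8 of its 14 genes were lower in PANC-1 and 6 higher. The 17 regulatory genes summed to 3125.5 ± 72.3 FPKM in CFPAC-1 and to 5622 ± 1027 FPKM in PANC-1. Without PSMC4 the regulatory sums were 2888 ± 68.6 and 3064 ± 678 FPKM, and the libraries of the lines overlapped. The median core gene stood 2.27-fold and 2.4-fold above the median regulatory gene in the CFPAC-1 DMSO libraries and 1.57-fold and 1.16-fold above it in the PANC-1 DMSO libraries. The sum over all 31 genes was 0.874% and 0.845% of summed FPKM in CFPAC-1 with DMSO and 0.647% and 0.927% in the PANC-1 DMSO libraries, values that overlap. In bulk footprint libraries, less mRNA, less translation of it and a different mix of cells within a line cannot be told apart.

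The untreated lines were then compared gene by gene with limma. Of the 31 genes, 8 were called at an adjusted p under 0.05, 3 higher and 5 lower in PANC-1. Over all 13125 genes tested 33.6% were called, 15.1% higher and 18.5% lower, so the number of calls among the subunits was near the background of 2 very different lines. The median log2 difference of the members was 0.07, against -0.03 for all genes, and had no settled direction: it was -0.26 without PANC-1 DMSO replicate 2 (all genes 0.015) and -0.007 without CFPAC-1 DMSO replicate 2. PANC-1 and CFPAC-1 libraries were fully apart for 26 of the 31 genes, 12 higher and 14 lower in PANC-1, against 70.6% of all genes (33.8% higher and 36.8% lower). A difference of at least 2-fold was seen for 9 of 31 members and for 42% of all genes.

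PSMC4 (ENSG00000013275), the ATPase that led the difference, was at 240 and 235 FPKM in CFPAC-1 controls against 2311 and 2805 FPKM in PANC-1 DMSO. With IKE it was at 206 and 220 FPKM in CFPAC-1 against 3389, 2302, 3569 and 2518 FPKM in PANC-1 replicates 1 to 4. Every PANC-1 library thus lay far above every CFPAC-1 library, with or without IKE. The log2 difference in DMSO was 3.42 ± 0.29 (SE; limma adjusted p = 1.337e-05), a 10.7-fold higher level in 2 of 2 PANC-1 libraries, larger than for 98.3% of all genes tested. The call held in 21 of 21 alternative settings, with log2 differences from 3.28 to 3.56. PSMC4 stood 0.93 to 1.05 times as high as the mean of the other 5 ATPases in the 4 CFPAC-1 libraries, and 12.8 to 15.4 times as high in the 6 PANC-1 libraries. Its share of the summed level of all 31 subunit genes was 2.19% ± 0.001 (SD, n = 2) in CFPAC-1 DMSO and 25.5% ± 0.19 (n = 2) in PANC-1 DMSO.

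**Figure D2:**
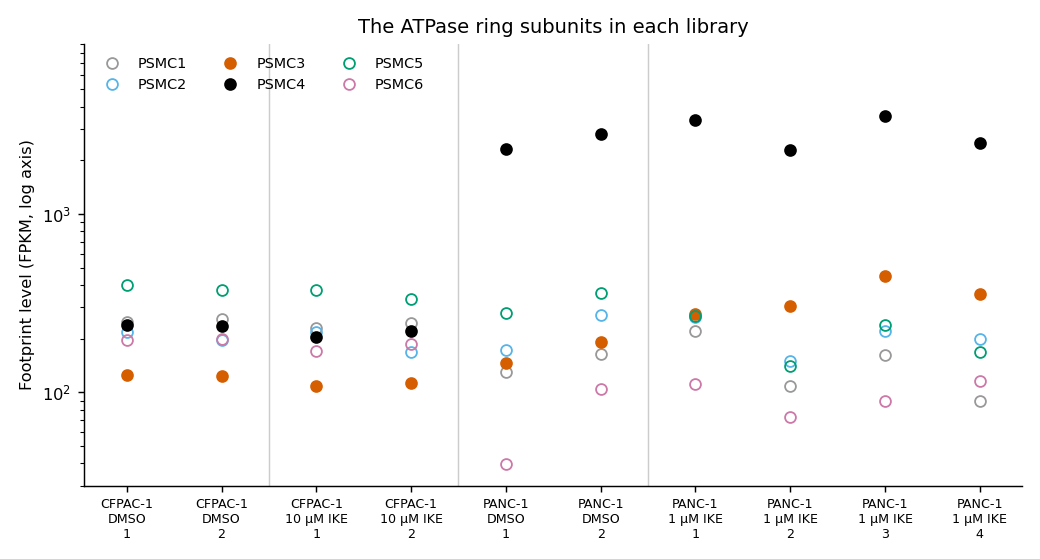
Footprint level in FPKM (log axis) of the 6 ATPase genes in each of the 10 libraries, which are separated by group. PSMC4 (black) sits among the other ATPases in CFPAC-1 and between 2302 and 3569 FPKM in PANC-1; PSMC3 (orange) is at 124 FPKM in CFPAC-1 DMSO and between 276 and 449 FPKM in PANC-1 with IKE.

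PSMD8 (ENSG00000099341), a lid subunit, was the next highest difference. It was at 202 and 221 FPKM in CFPAC-1 controls against 488.5 and 413 FPKM in PANC-1 DMSO, a log2 difference of 1.08 ± 0.34 (adjusted p = 0.03175, limma). PSMC4 (chr19:39971165-39981764) and PSMD8 (chr19:38374571-38383824) are the 2 members on chromosome 19, 1.59 Mb apart in the RefSeq annotation of GRCh38.p14, and they had the largest differences toward PANC-1 of the 31. This position was noticed after the values had been seen. PSMD13, another lid subunit (chr11:236976-252984), was at 134 and 124 FPKM in CFPAC-1 against 221 and 290 FPKM in PANC-1, a log2 difference of 0.97 ± 0.31 (adjusted p = 0.03448, limma). The groups did not overlap for either lid gene.

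Of the 5 calls toward CFPAC-1, 4 were among the 14 core genes, while 18.5% of all genes were called lower in PANC-1. Another 6 core genes had estimates above 0, toward PANC-1. PSMB3 (ENSG00000277791; chr17:38752741-38764225) was at 2098 and 1980 FPKM in CFPAC-1 against 579 and 686 FPKM in PANC-1, a log2 difference of -1.69 ± 0.43 (adjusted p = 0.01182, limma). PSMA6 was at 1010 and 1045 FPKM against 320 and 326 FPKM, a difference of -1.67 ± 0.39 (adjusted p = 0.0084, limma). PSMA3 was at 618 and 704 FPKM against 187 and 239 FPKM, a difference of -1.64 ± 0.40 (adjusted p = 0.01049, limma). These core genes were thus about as far below in PANC-1 as each other, each with no overlap between the lines. PSMA5 was at 388 and 386 FPKM against 147 and 175 FPKM, a difference of -1.27 ± 0.35 (adjusted p = 0.01745, limma). PSMC6, an ATPase, was at 197 and 200.1 FPKM in CFPAC-1 against 39.6 and 104 FPKM in PANC-1, for a log2 difference of -1.61 ± 0.41 (adjusted p = 0.01208, limma). The PANC-1 libraries of PSMC6 differed 2.63-fold from each other, the widest gap between them among the 31 genes.

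Not all genes of a ring were called, and over all genes 18.5% were called lower and 15.1% higher in PANC-1. In the alpha ring 3 of 7 genes were called lower in PANC-1, while PSMA7 was at 499.92 and 479 FPKM in CFPAC-1 against 601 and 483 FPKM in PANC-1, values that overlap. In the beta ring 1 of 7 was called, and the 3 catalytic subunits were not. PSMB5, which carries the chymotrypsin-like site, was at 334 and 277 FPKM in CFPAC-1 against 183 and 185 FPKM in PANC-1, a log2 difference of -0.72 ± 0.51 (adjusted p = 0.3112, limma). PSMB6, with the caspase-like site, was at 162 and 167 FPKM against 194 and 174 FPKM, a difference of 0.16 ± 0.36 (adjusted p = 0.767, limma). PSMB7, with the trypsin-like site, was at 145 and 127 FPKM against 179 and 216 FPKM, a difference of 0.53 ± 0.52 (adjusted p = 0.4759, limma). The 95% intervals of the log2 difference ran from -1.86 to 0.41 for PSMB5, from -0.64 to 0.97 for PSMB6 and from -0.63 to 1.69 for PSMB7, so each included 0 and none was narrow. PSMB5 was called lower without PANC-1 IKE replicates 2 and 4 (limma adjusted p = 0.02015), at the same log2 difference. Those libraries enter this comparison only through the shared spread. In that setting 44.8% of all genes were called, against 33.6% with all libraries. In the lid 2 of 8 genes were called, both higher in PANC-1, and PSMD12 missed the threshold at 139 and 146 FPKM against 33.1 and 67.1 FPKM, a difference of -1.57 ± 0.56 (adjusted p = 0.05236, limma).

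Apart from PSMC4, the calls between the lines depended on single libraries. Without PANC-1 IKE replicate 4, 3 members were called higher and 8 lower, and 40.7% of all genes were called. Without PANC-1 IKE replicates 2 and 4 together the numbers were 3 and 11, and 44.8% of all genes were called, against 33.6% with all libraries. Leaving out any library of CFPAC-1 or of PANC-1 DMSO left 1 library in its group. Each call other than that of PSMC4 was lost in some of these fits, and counts are not given for them. Over all fits without a library, the log2 difference ran from 3.28 to 3.56 for PSMC4 and from 0.96 to 1.21 for PSMD8. It ran from 0.77 to 1.16 for PSMD13, from -1.81 to -1.57 for PSMB3 and from -2.30 to -0.92 for PSMC6.

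**Figure D3:**
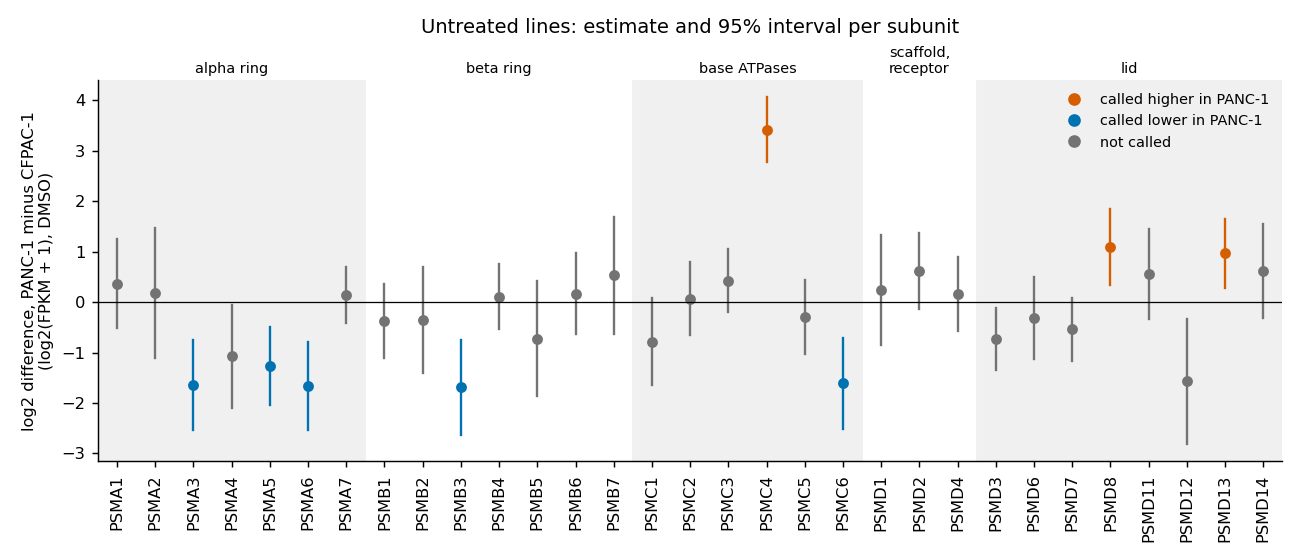
Log2 difference between PANC-1 and CFPAC-1 in DMSO for each subunit gene, as the limma estimate (point) with its 95% interval (line), colored by call; 2 libraries per line. PSMC4 stands alone at 3.42, and the 5 genes called lower lie between -1.27 and -1.69.

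The stretches just upstream of the genes on which these results turn are shown because subunit genes are known for shared promoter elements. RefSeq promoter windows (250 bases before to 50 after the start site, GRCh38.p14) were matched for 26 of the 31 genes, with more than 1 window for 5 of them. The bases before the start site follow, written 5′ to 3′ on the gene's strand. Capitals mark matches, on either strand, to an antioxidant response element core (TGACNNNGC), a CCAAT box (CCAAT) or an ETS core (CCGGAAG). The windows are chr19:39970915-39971164 (plus strand) for PSMC4, chr19:38374321-38374570 (plus strand) for PSMD8, chr11:47426440-47426689 (minus strand) for PSMC3 and chr17:38752491-38752740 (plus strand) for PSMB3.
PSMC4: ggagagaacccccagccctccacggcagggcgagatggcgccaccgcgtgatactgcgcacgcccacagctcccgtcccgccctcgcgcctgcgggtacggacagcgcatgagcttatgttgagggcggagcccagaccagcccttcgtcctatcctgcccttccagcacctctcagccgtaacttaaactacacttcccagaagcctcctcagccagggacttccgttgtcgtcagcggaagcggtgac
PSMD8: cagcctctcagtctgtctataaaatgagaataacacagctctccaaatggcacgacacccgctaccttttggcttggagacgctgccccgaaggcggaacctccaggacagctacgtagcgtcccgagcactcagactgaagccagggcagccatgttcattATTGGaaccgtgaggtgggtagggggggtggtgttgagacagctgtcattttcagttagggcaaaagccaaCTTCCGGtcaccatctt
PSMC3: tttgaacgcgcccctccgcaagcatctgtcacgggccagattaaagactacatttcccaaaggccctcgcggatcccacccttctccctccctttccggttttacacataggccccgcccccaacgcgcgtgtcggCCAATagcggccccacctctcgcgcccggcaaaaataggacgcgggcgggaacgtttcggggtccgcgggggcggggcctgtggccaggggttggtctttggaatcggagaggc
PSMB3: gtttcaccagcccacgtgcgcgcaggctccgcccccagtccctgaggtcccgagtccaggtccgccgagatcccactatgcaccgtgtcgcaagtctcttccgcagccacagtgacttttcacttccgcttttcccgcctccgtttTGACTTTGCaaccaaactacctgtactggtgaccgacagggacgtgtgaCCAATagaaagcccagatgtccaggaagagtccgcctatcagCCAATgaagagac
PSMB3 held an antioxidant response element core and 2 CCAAT boxes, PSMD8 a CCAAT box and an ETS core, both read on the opposite strand, PSMC3 a CCAAT box, and PSMC4 none of the 3 before its start site (its match to the first lies 27 bases past it), where none says only that these letters are not in this window. The antioxidant response element core was present in the windows of 7 of 26 members (26.9%) and of 16.1% of all 27305 genes with a window. The CCAAT box was present in 15 of 26 members (57.7%) and 39.7% of all genes, and the ETS core in 10 of 26 (38.5%) and 12.2% of all genes. No match overlapped another kind of match in the 4 sequences shown. A match is a run of letters and was not tested for binding.

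IKE at 10 µM was next compared with DMSO in CFPAC-1; the DMSO libraries are those of the comparison between lines, so the comparisons are not independent. The footprint level of 30 of the 31 genes was below DMSO on average, by small amounts, and none was called (limma, 0 of 31 in either direction, with 0 at an unadjusted p under 0.05, against 1.48% of all genes). The median log2 fold change of the members was -0.16, against -0.01 for all genes, and 51.6% of all genes were below 0. Over all 13125 genes 0.00762% were called. The 31 genes summed to 10843 ± 176 FPKM (SD, n = 2) with DMSO and to 9684 ± 206 FPKM (n = 2) with IKE. The IKE libraries lay wholly outside the DMSO libraries for 20 genes that were lower and 1 that was higher with IKE, against 22.3% lower and 20.2% higher among all genes. The number of members below 0 was 26 with quantile normalization and 28 to 30 when a library was left out.

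The 3 genes with the lowest estimates in CFPAC-1 came from different parts of the complex. PSMB6, the caspase-like subunit, measured 162 and 167 FPKM in the controls against 117 and 125 FPKM with IKE, a log2 fold change of -0.44 ± 0.36 (adjusted p = 1, limma). PSMA4 measured 789 and 813 FPKM in the controls against 614 and 599 FPKM with IKE, a change of -0.40 ± 0.46 (adjusted p = 1, limma). PSMD2, a scaffold of the base, measured 185 and 174 FPKM in the controls against 137 and 149 FPKM with IKE, a change of -0.33 ± 0.34 (adjusted p = 1, limma). In each of these the IKE libraries lay below the DMSO libraries without overlap. Of the other catalytic subunits, PSMB5 gave 287 and 248 FPKM with IKE after 334 and 277 FPKM without it (-0.19 ± 0.51), and PSMB7 gave 126 and 124 FPKM after 145 and 127 FPKM (-0.12 ± 0.52; adjusted p = 1 for both, limma). Neither was called, and PSMB5 overlapped between the groups.

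PSMD4, a ubiquitin receptor of the base, was the single member with a higher mean. It measured 243 and 254 FPKM in the controls against 283 and 299 FPKM with IKE, a log2 fold change of 0.23 ± 0.33 (adjusted p = 1, limma), and kept its direction in 22 of 22 alternative settings. Next in the order came PSMD3, a lid subunit, at 207 and 180.5 FPKM in the controls and 196 and 174 FPKM with IKE (-0.07 ± 0.28), and PSMB4 of the beta ring, at 545 and 514 FPKM and then 507 and 500.04 FPKM (-0.07 ± 0.29; adjusted p = 1 for both, limma). Both changed sign in alternatives, PSMD3 without CFPAC-1 DMSO replicate 1 or IKE replicate 2 and PSMB4 with quantile normalization. The model shares its spread with the noisier PANC-1 libraries, so these standard errors are wide for CFPAC-1 and narrow for PANC-1. Fitted alone, CFPAC-1 gave unadjusted p under 0.05 for 3 of 31 members, namely PSMA4, PSMB6 and PSMD2, against 12.3% of the 12563 genes in that fit. None of them was called there (limma adjusted p = 0.2479, 0.2583 and 0.3517), while 0.127% of genes were.

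**Figure D4:**
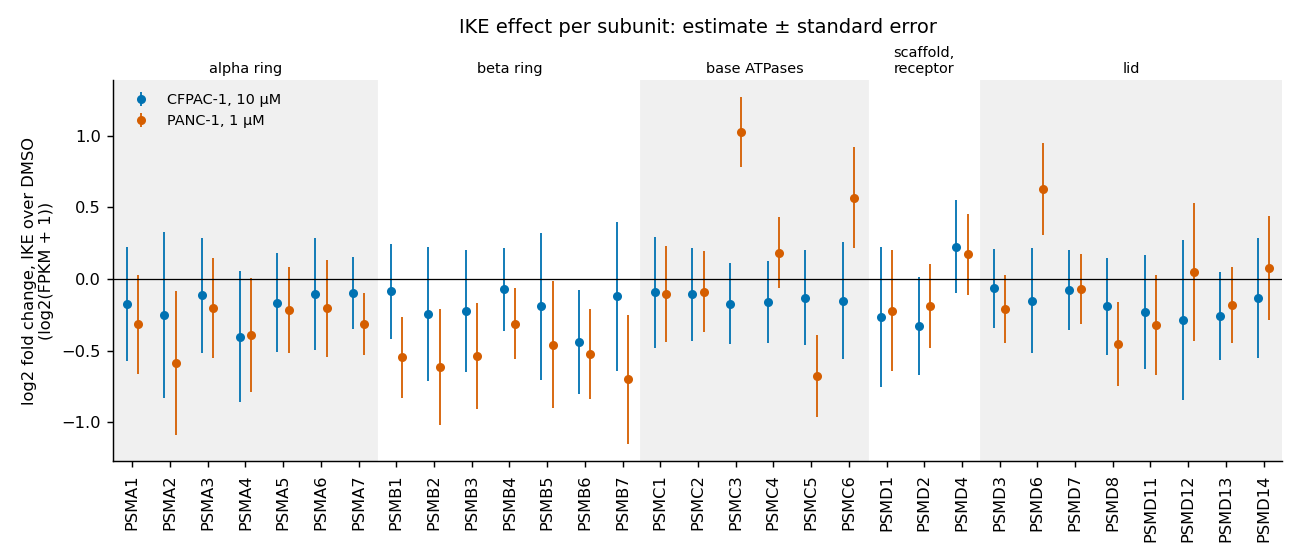
Log2 fold change of IKE over DMSO for each subunit gene in CFPAC-1 (blue, 2 against 2 libraries) and PANC-1 (orange, 4 against 2 libraries), as limma estimate ± standard error. CFPAC-1 estimates lie between -0.44 and 0.23, and in PANC-1 PSMC3 is the highest at 1.02 and PSMB7 the lowest at -0.70.

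In PANC-1 with 1 µM IKE no member was called either (limma, 0 of 31 in either direction; 1 higher and 1 lower at an unadjusted p under 0.05, against 8.01% and 9.55% of all genes). Over all genes 0.0152% were called. The median log2 fold change of the members was -0.22, against -0.02 for all genes. All 14 core genes had a mean below DMSO, with a median of -0.43 and a range from -0.70 to -0.20, while 10 of the 17 regulatory genes were below and 7 above (24 of 31 below in all, against 51.1% of all genes), with a median of -0.09 and a range from -0.68 to 1.02. Scaling moved the regulatory median across 0, to 0.03 with quantile normalization, and left the core median between -0.46 and -0.30.

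The low core median rested on replicates 2 and 4. In each of them 14 of 14 core genes lay below both DMSO libraries, and 25 of the 31 members did so, against 36.2% and 39.9% of all genes. In each of IKE replicates 1 and 3, 2 of 14 core genes lay below both DMSO libraries, against 27.7% and 32.01% of all genes. In replicate 1, 18 of 31 members, 12 of them regulatory, lay above both DMSO libraries, against 32.2% of all genes, and the median member was 0.28 log2 units above the DMSO mean. The median core gene differed from the DMSO mean by -0.72 and -1.06 log2 units in replicates 2 and 4, and by 0.15 and 0.001 in replicates 1 and 3. Core footprints summed to 4198 and 4576 FPKM in the DMSO libraries and to 4727, 2735, 4301 and 2167 FPKM in IKE replicates 1 to 4. Without replicates 2 and 4 the median of the members was 0.16, with 0.08 for the core and 0.35 for the regulatory particle, and 7 of 31 genes were below 0. Replicates 2 and 4 were also the shallowest libraries, at 0.24 and 0.21 of the reference depth, and those with the largest share in the 10 most abundant genes; the part of these differences in the result was not tested. The core median was -0.33 with libraries scaled to their sum without the most abundant genes, -0.29 with the replicate block and -0.12 with library weights, where the median of all members was -0.03.

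The DMSO libraries of PANC-1 differed as well, with 28 of 31 members higher in replicate 2 than in replicate 1, where 40.3% of all genes were. Without DMSO replicate 1 the median of the members was -0.41 and without DMSO replicate 2 it was -0.03. The regulatory median moved from -0.38 to 0.22 between these choices, and so had no settled direction, while the core median was -0.51 and -0.43.

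**Figure D5:**
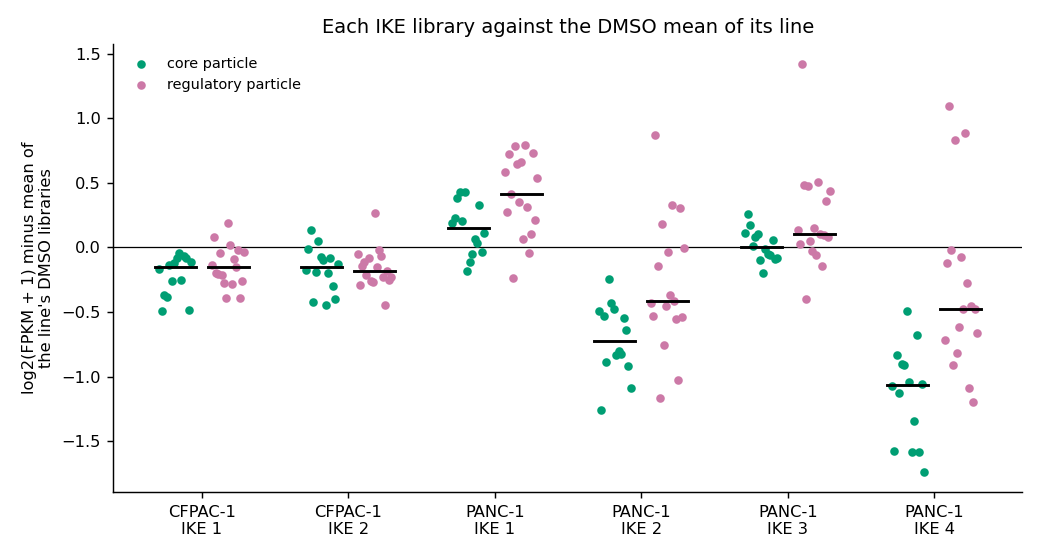
Difference on the log2(FPKM + 1) scale between each IKE library and the mean of the DMSO libraries of its line; each point is a subunit gene, green for the core and pink for the regulatory particle, and black bars are medians. In PANC-1 the core genes of replicates 2 and 4 all lie below 0, with medians of -0.72 and -1.06, and those of replicates 1 and 3 lie around 0.

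PSMC3 (ENSG00000165916; chr11:47418775-47426439), an ATPase of the base, had the highest estimate in PANC-1. It measured 146 and 192 FPKM in the controls against 276, 306, 449 and 358 FPKM in IKE replicates 1 to 4, so all 4 IKE libraries lay above both DMSO libraries. Groups did not overlap in this direction for 10.2% of all genes. The log2 fold change was 1.02 ± 0.24 and missed the threshold (adjusted p = 0.1258, limma), although it exceeded that of 94.7% of all genes. It ranged from 0.79 to 1.22 over 22 alternative settings, with limma adjusted p from 0.07512 to 0.4037, and was not called in any. Without replicates 2 and 4 it was 1.07. Relative to the median of PSMC1, PSMC2, PSMC5 and PSMC6, PSMC3 stood at 0.48 to 0.54 in the 4 CFPAC-1 libraries, at 0.96 and 0.88 in PANC-1 DMSO, and at 1.14, 2.46, 2.35 and 2.52 in PANC-1 IKE replicates 1 to 4. In CFPAC-1 it measured 124 and 124 FPKM in the controls against 108 and 112 FPKM with IKE. The IKE effects on PSMC3 differed, PANC-1 minus CFPAC-1, by a log2 value of 1.20 ± 0.37, and missed the threshold (adjusted p = 0.5507, limma).

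PSMD6, of the lid, and PSMC6, an ATPase, were the next highest. PSMD6 measured 40.1 and 88.7 FPKM in the controls against 104, 75.2, 85.1 and 111 FPKM with IKE, a log2 fold change of 0.63 ± 0.32 (adjusted p = 0.334, limma) that was 0.07 without DMSO replicate 1 and 1.19 without DMSO replicate 2. PSMC6 measured 39.6 and 104 FPKM in the controls against 111, 73.0, 89.6 and 115 FPKM with IKE, a change of 0.57 ± 0.35 (adjusted p = 0.4274, limma) that turned to -0.12 without DMSO replicate 1 and was 1.25 without DMSO replicate 2. Without IKE replicates 2 and 4 the changes were 0.65 for PSMD6 and 0.63 for PSMC6. For both genes the groups overlapped, and the low values were those of DMSO replicate 1.

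The lowest in PANC-1 were PSMB7, PSMC5 and PSMB2. PSMB7, the trypsin-like subunit, measured 179 and 216 FPKM in the controls against 212, 91.6, 185 and 58.1 FPKM with IKE, a log2 fold change of -0.70 ± 0.45 (adjusted p = 0.4455, limma), or 0.02 without replicates 2 and 4. PSMC5, an ATPase, measured 278 and 361 FPKM in the controls against 269, 141, 239.53 and 168 FPKM with IKE, a change of -0.68 ± 0.28 (adjusted p = 0.2583, limma), or -0.32 without replicates 2 and 4. PSMC5 lay below both DMSO libraries in 4 of 4 IKE libraries, as did PSMB1 of the beta ring, and groups did not overlap in this direction for 12.2% of all genes. PSMB2 measured 262 and 320 FPKM in the controls against 279.97, 166, 287 and 95.9 FPKM with IKE, a change of -0.61 ± 0.41 (adjusted p = 0.4578, limma), or -0.03 without replicates 2 and 4. PSMB5 measured 183 and 185 FPKM in the controls against 231, 118, 191 and 60.8 FPKM with IKE, a change of -0.46 ± 0.44 (adjusted p = 0.6164, limma), or 0.19 without replicates 2 and 4. PSMB6 measured 194 and 174 FPKM in the controls against 179, 96.9, 173 and 88.0 FPKM with IKE, a change of -0.52 ± 0.31 (adjusted p = 0.4083, limma), or -0.06 without replicates 2 and 4. In all of PSMB7, PSMB2, PSMB5 and PSMB6 the 2 low libraries were IKE replicates 2 and 4. Fitted alone, PANC-1 gave an unadjusted p under 0.05 for 1 of 31 members, namely PSMC3, against 11.1% of genes. It was not called there (adjusted p = 0.4037, limma), while 0.0159% of genes were.

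PSMC4 stayed high in PANC-1 with IKE. Its level was 2558 ± 349 FPKM (SD, n = 2) with DMSO and 2944 ± 628 FPKM (n = 4) with IKE, a log2 fold change of 0.18 ± 0.25 (adjusted p = 0.7315, limma). No change without IKE replicates 2 and 4 is given for this gene. PSMC4 measured 3389 and 3569 FPKM in IKE replicates 1 and 3, above both DMSO libraries (2311 and 2805 FPKM), and 2302 and 2518 FPKM in replicates 2 and 4. Its share of the summed level of the 31 genes was 25.4% and 25.7% with DMSO and 28.6%, 31.01%, 31.8% and 35.5% in IKE replicates 1 to 4. The groups did not overlap in this share, for which no test was made.

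The IKE effects of the lines were last set against each other, in a comparison where line and dose change together. No member was called (limma, 0 of 31 in either direction; 1 at an unadjusted p under 0.05, PSMC3, against 8.41% of all genes), and over all genes 0.0305% were called. The median difference of the members, PANC-1 minus CFPAC-1, was -0.08, against -0.01 for all genes, and it turned to 0.37 without PANC-1 IKE replicates 2 and 4. Library weights (0.14), the replicate block (0.03), and leaving out PANC-1 DMSO replicate 2 (0.09), IKE replicate 2 (0.02) or IKE replicate 4 (0.11) also put it above 0, so it had no settled direction. The differences ran from -0.58 for PSMB7 to 1.20 for PSMC3, with a median standard error of 0.485.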

How the data were processed

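Ribo-seq libraries were prepared by the submitters from cycloheximide-arrested, RNase I-digested lysates with rRNA removal, per the labels' protocols. The deposited FPKM values, 1 column per library with none pooled, were computed by the authors and rounded, per the file headers. Tools listed in the submitters' processing notes, with no role, are STAR, RSEM, fastp, DESeq2 and Bowtie2 2.2.8, with build GRCh38. Annotation, strand setting and read filters are not given in sources used here. All 10 columns were matched to libraries by name.

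Genes averaging 1 FPKM or more (13125, including all 31 members) were fitted with limma 3.58.1 in R 4.3.3 on log2(FPKM + 1), with the 4 groups in 1 model, eBayes with trend, and p-values adjusted by Benjamini-Hochberg over all genes tested; log2 changes are on this scale with standard errors. The fit was tested on simulated data, where the only requirement was that the median estimate recover the planted changes. No requirement was set on the calls, so this test does not show which changes could be called. Relative depth came from the most frequent ratio of low values between libraries, which are multiples of 1 read; absolute depth is unknown, and no count test was run. The labels call replicates biological and name no separate cultures, so p-values measure the spread between these libraries.

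The members and lists were chosen with earlier results of these data known. Values per library and full statistics are given for PSMB5, PSMB6 and PSMB7, for the 3 highest and 3 lowest members of each comparison except the difference of the IKE effects, and for every called member. Members were named through the order given with their IDs. No other ID was paired with a name, so immunoproteasome subunits, activators, assembly factors, the NFE2L1 pathway and cell type markers were not analysed here, and the labelled cell types were not checked against markers. Replicate numbers are shared between groups but pair nothing by the labels.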

Additional observations from a re-analysis of the deposited data

How the results depend on the processing

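With no member called, the IKE comparisons and the difference between them kept 0 calls in all alternatives run (pseudocounts of 0.1 and 5, no filter or a mean of at least 5 FPKM, 4 other scalings, library weights, fits of a line alone where possible, the replicate block, and leaving out libraries). Between the lines, 3 members were called higher and 5 lower. Leaving out a PANC-1 IKE library gave 3 higher and 5 to 8 lower, with 31.7% to 40.7% of all genes called. Leaving out any other library left 1 library in its group, and calls other than that of PSMC4 were lost there. Library weights gave 8 lower, and leaving out PANC-1 IKE replicates 2 and 4 together gave 11 lower. The median difference of the IKE effects ranged from -0.246 to 0.105 without a library and was 0.37 without those 2 replicates, where the PANC-1 medians were 0.079 (core), 0.348 (regulatory) and 0.159 (all members), PSMB5 was at 0.193 and PSMB7 at 0.015. The median difference between the lines, 0.068, ranged from -0.258 to 0.128 without a library, below 0 without PANC-1 DMSO replicate 2 (-0.258) or CFPAC-1 DMSO replicate 2 (-0.007); quantile normalization moved the median of all genes there from -0.028 to 0.103. Signs also changed for PSMC6 in PANC-1 (-0.118 to 1.255 without a library) and, in CFPAC-1, PSMD3 (-0.166 to 0.035 without a library) and PSMB4 (0.024 with quantile normalization). The PANC-1 regulatory median also crossed 0 with quantile normalization (0.027), scaling without the most abundant genes (0.005) and library weights (0.054). The share of all genes called between the lines moved as well, from 33.6% to 37.7% with library weights and to 44.8% without PANC-1 IKE replicates 2 and 4. The cause of these changes was not tested. With the replicate block on replicates 1 and 2, PSMD13 lost its call between the lines (limma adjusted p = 0.05118), and 2 members were called higher and 6 lower; deviations of same-numbered libraries correlated at -0.169 to 0.049, so the numbers are not treated as pairs. Precision is limited by 2 libraries in 3 of the 4 groups and by the shallow PANC-1 libraries.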
